A study of Mus musculus with 2 samples.

Results

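Klk6 and Klk8 are 2 of the 31053 gene rows measured, and they were chosen because earlier work on these libraries had shown their levels. Their levels were followed here across the 3 stages of the oligodendrocyte lineage, the 2 conditions and the depth of the cell barcodes. Both belong to the kallikreins, a family of secreted trypsin-like or chymotrypsin-like serine proteases that are made as inactive proforms and lie next to each other in 1 gene cluster. Klk6 is made by oligodendrocytes, and its protein can cleave myelin basic protein and act on protease-activated receptors. Klk8, also called neuropsin, is best known from neurons, where its protein cleaves cell adhesion molecules and receptors at the synapse.

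Single cell RNA-seq (scRNA-seq) was done on wild-type 129S1/SvlmJ mouse optic nerves, with 1 library from 5 injured nerves and 1 library from 5 uninjured nerves, each pooled from males and females. The injured nerves were taken at 10 weeks of age, after optic nerve crush (ONC) at 8 weeks, which severs the axons and is followed by a glial scar, and the uninjured nerves came from mice of the same age without ONC. Both sample labels give P56 and 2 weeks after crush, and the title alone marks the uninjured library. Each barcode carries a type given by the authors: oligodendrocyte progenitor cell (OPC), newly formed oligodendrocyte (NFO) or oligodendrocyte. The paper also describes maturing small spidery oligodendrocytes that emerged after injury. The types do not name them, so the oligodendrocyte type is not read as fully mature cells alone.

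The uninjured library held 959 lineage barcodes (58 OPCs, 44 NFOs and 857 oligodendrocytes) with 4414834 unique molecular identifiers (UMIs, each a captured RNA molecule), and the injured library held 410 (17, 100 and 293) with 2771797 UMIs. No barcode sequence was shared by the libraries. With 1 library per condition there is no replicate error, so no test was made and no p-value is given. Intervals are exact 95% intervals of the counts, cover counting error only and describe these libraries, not the conditions. Oligodendrocyte barcodes had a median of 3060 UMIs (uninjured) and 1268 UMIs (injured), but 84 of the 293 injured barcodes (28.7%) had at least 8000 UMIs and held 86.9% of the UMIs, against 203 of 857 (23.7%) with 58.7% in the uninjured library. All 8 fixed markers of oligodendrocytes were found in at least 25% of oligodendrocyte barcodes in both libraries. The NFO type was less clear, as 55 of the 100 injured NFO barcodes and 12 of the 44 uninjured ones had their highest mean over NFO markers rather than over OPC or oligodendrocyte markers.

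Both genes lie on the plus strand of chromosome 7 (GRCm38, the mm10 assembly used by the authors, GENCODE vM21). Klk8 (ENSMUSG00000064023) spans chr7:43797577-43803826, with 3 transcripts of which 2 are coding, and Klk6 (ENSMUSG00000050063) spans chr7:43824499-43832030, with 4 coding transcripts. Klk9 ends 819 bases before Klk8, and Klk7 lies between Klk8 and Klk6. The start of Klk8 is overlapped on the minus strand by the noncoding gene 2310002F09Rik, which was not analysed here. That gene ends at position 43797958, so the 3′ end of Klk8 lies outside the overlap, and it also spans Klk9 to Klk13. Whether the counting used strand is not given in the sources used here. Without it, RNA from the shared bases could not be told apart from its antisense partner, and any such share was not tested. Klk6 overlaps no other gene of the annotation.

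Because both genes were far higher in the injured oligodendrocytes, their promoter windows are shown, from 250 bases before to 50 bases from the start site (RefSeq, GRCm38.p6, plus strand). RefSeq gives 2 start sites for Klk6, and UMIs counted at the 3′ end of the RNA cannot tell which was used. Capitals mark matches, on either strand, to a GC box (GGGCGG) or to a SOX core (ACAAAG).
Klk8 chr7:43797327-43797626: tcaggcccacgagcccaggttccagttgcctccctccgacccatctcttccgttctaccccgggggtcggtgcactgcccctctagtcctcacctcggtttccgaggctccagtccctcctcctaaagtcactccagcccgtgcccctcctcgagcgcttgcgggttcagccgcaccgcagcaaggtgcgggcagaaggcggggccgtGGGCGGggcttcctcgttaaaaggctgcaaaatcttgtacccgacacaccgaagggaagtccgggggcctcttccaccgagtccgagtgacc
Klk6 chr7:43824294-43824593: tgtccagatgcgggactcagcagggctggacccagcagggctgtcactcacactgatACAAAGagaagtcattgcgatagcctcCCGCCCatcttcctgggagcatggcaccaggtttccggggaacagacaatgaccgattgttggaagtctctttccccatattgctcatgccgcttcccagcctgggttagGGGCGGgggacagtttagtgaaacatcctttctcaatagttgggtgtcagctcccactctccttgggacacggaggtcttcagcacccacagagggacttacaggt
Klk6 chr7:43825200-43825499: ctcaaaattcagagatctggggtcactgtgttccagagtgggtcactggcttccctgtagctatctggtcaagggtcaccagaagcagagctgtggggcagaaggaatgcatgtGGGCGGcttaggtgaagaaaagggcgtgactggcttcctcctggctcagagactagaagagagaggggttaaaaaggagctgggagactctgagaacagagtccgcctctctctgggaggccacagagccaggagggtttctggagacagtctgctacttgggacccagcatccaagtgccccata
Positions give the first base of the match from the start site, which is 0. The Klk8 window held 1 GC box, at −42. The first Klk6 window held 2 GC boxes, at −166 and −56, and 1 SOX core at −193. The other Klk6 window held 1 GC box, at −136. A GC box was found in 35.7% of 32851 mouse windows of this length and a SOX core in 18.7%. No match to an AP-1 element (TGACTCA, 5.20% of windows), a cAMP response element (TGACGTCA, 1.79%), a RUNX core (TGTGGT, 16.8%) or a TATA box (TATAAA, 13.6%) was found in these 3 windows, which says only that these letters are not there.

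The comparison of injured and uninjured nerves asks how oligodendrocyte lineage cells differ after ONC. Klk6 was abundant in uninjured oligodendrocytes and higher in injured ones, whereas Klk8 was at background in uninjured oligodendrocytes and abundant in injured ones. Levels are CPM, the UMIs of the gene per 1000000 UMIs of all barcodes of the class. Klk6 had 3067 UMIs in uninjured oligodendrocytes, or 739 CPM (713 to 766), and 7778 UMIs in injured oligodendrocytes, or 3378 CPM (3304 to 3454). The intervals are far apart, and the injured over uninjured ratio of Klk6 was 4.57 (4.38 to 4.77). Klk8 had 1 UMI in uninjured oligodendrocytes, or 0.241 CPM (0.00610 to 1.34), and 1112 UMIs in injured oligodendrocytes, or 483 CPM (455 to 512). With 1 uninjured UMI, the Klk8 ratio of 2004 has an interval of 359 to 79227, and against a floor of 3 UMIs over the class it was 668. Among 8591 genes with at least 50 UMIs in the oligodendrocytes of both libraries together, 127 (1.48%) were at least 4-fold higher and 57 (0.663%) at least 4-fold lower in the injured library, with a median ratio of 1.03. Klk8 had the highest ratio of all of them, also with the floor, followed by the noncoding gene Gm26870 at 241.5, while Klk6 was at rank 111, between Syngr1 (4.69) and Myh7b (4.51). These places follow from how the genes were chosen, and nothing is read from them.

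Within the lineage, both genes were found mostly in barcodes typed as oligodendrocytes. Klk6 had 2 UMIs in uninjured OPCs (11.7 CPM, 1.41 to 42.2), none in uninjured NFOs or injured OPCs, and 5 UMIs in injured NFOs (14.2 CPM, 4.61 to 33.2). These 4 low classes have overlapping intervals and all lie below uninjured oligodendrocytes, so the order for Klk6 was injured oligodendrocytes, uninjured oligodendrocytes, then the rest. In the injured library the NFO level of Klk6 was 0.00421 times that of oligodendrocytes (0.00137 to 0.00982). Injured OPCs had 0 Klk6 UMIs, and oligodendrocytes were 132-fold higher against a floor of 3 UMIs. The exact upper limit of that OPC over oligodendrocyte ratio was 0.00929. When types were taken from the highest mean over the fixed marker lists instead, no Klk6 UMI was left in injured NFOs. Klk8 had 1 UMI in uninjured OPCs (5.84 CPM, 0.148 to 32.5), 1 in injured OPCs (8.50 CPM, 0.215 to 47.4), none in uninjured NFOs and 4 in injured NFOs (11.4 CPM, 3.10 to 29.1). Injured NFOs and OPCs and uninjured OPCs overlap in Klk8 level, and the single UMI of the far larger class of uninjured oligodendrocytes lies below the injured NFOs. Injured NFOs were at 0.0235 times the Klk8 level of injured oligodendrocytes (0.00640 to 0.0604).

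**Figure D1:**
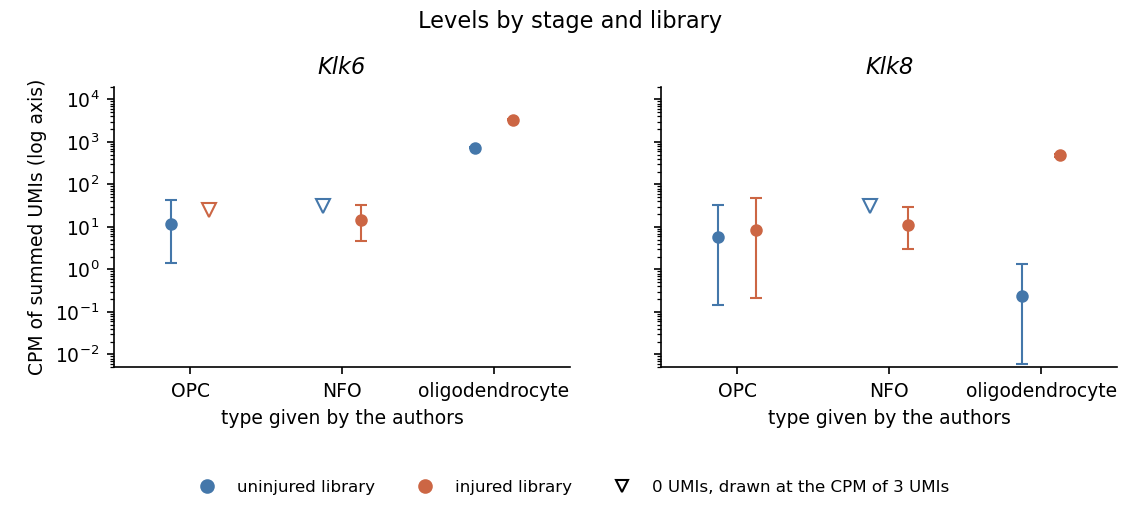
CPM of summed UMIs (log axis) of Klk6 and Klk8 in OPCs, NFOs and oligodendrocytes of the uninjured (blue) and injured (orange) library, with exact 95% Poisson intervals, and open triangles at the CPM of 3 UMIs where a class had 0 UMIs. Klk6 was at 739 and 3378 CPM in uninjured and injured oligodendrocytes, and Klk8 stood out in injured oligodendrocytes alone, at 483 CPM.

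The share of barcodes with a UMI gave the same order but depends on depth. Klk6 was found in 307 of 857 uninjured oligodendrocyte barcodes (35.8%, 32.6 to 39.1) and in 181 of 293 injured ones (61.8%, 55.9 to 67.4). For comparison, OPCs, which should lack both genes, gave a Klk6 UMI in 2 of 58 uninjured barcodes (3.45%, median depth 2290 UMIs) and in 0 of 17 injured ones (median 4120 UMIs), for which the exact upper limit is 19.5%. Klk8 was found in 93 of 293 injured oligodendrocyte barcodes (31.7%, 26.4 to 37.4), against 1 of 17 injured OPCs (5.88%, 0.149 to 28.7). In uninjured oligodendrocytes it was found in 1 of 857 barcodes (0.117%), at or below the 1 of 58 uninjured OPCs (1.72%), so that UMI is read as background. Thinned to 500 UMIs, 143 of 838 uninjured barcodes (17.1%) and 139 of 293 injured barcodes (47.4%) kept a Klk6 UMI, with 19 shallower uninjured barcodes left out. Klk8 was then in 0 of 838 (exact upper limit 0.439%) and in 21 of 293 (7.17%). Thinned to 2000 UMIs, the Klk6 shares were 35.7% of 555 uninjured and 85.3% of 129 injured barcodes, and the Klk8 shares 0.180% and 33.3%.

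Klk6 was higher in the injured library at every depth, although by a varying factor. In barcodes under 1000 UMIs, Klk6 was at 201 CPM (126 to 304) in uninjured and at 1106 CPM (901 to 1343) in injured oligodendrocytes. The injured level also exceeded the uninjured one in each of the 4 bins from 1000 to 16000 UMIs, with ratios of 5.70, 3.17, 3.41 and 6.19. In the deepest bin, of 16000 UMIs and over, 21 uninjured barcodes had 1701 CPM (1583 to 1826) and 67 injured barcodes had 3560 CPM (3474 to 3648), a ratio of 2.09 (1.94 to 2.26). Uninjured Klk6 thus went from 201 CPM in the shallowest to 1701 CPM in the deepest bin, and the deepest injured bin held 67 of the 293 barcodes. Combined over the bins by Mantel-Haenszel weights, the Klk6 ratio was 2.91, over 1.5 times below the pooled value. Klk8 had no UMI in uninjured oligodendrocytes in 5 of the 6 bins, and its single UMI fell at 8000 to 16000 UMIs. In injured oligodendrocytes its level was between 92.6 and 197 CPM in the 4 bins under 8000 UMIs, then 469 CPM (378 to 575) at 8000 to 16000 UMIs and 540 CPM (507 to 575) above. Against the floor of 3 UMIs, Klk8 was 7.21-fold higher in the shallowest bin and 81.1-fold higher in the deepest, with exact lower limits of 5.28 and 65.8.

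**Figure D2:**
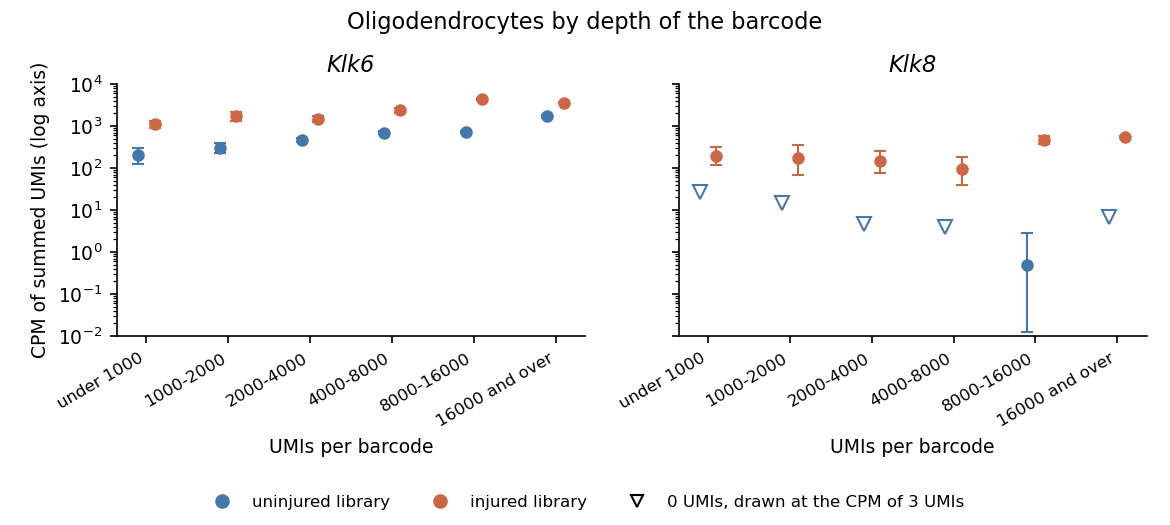
CPM of summed UMIs (log axis) of Klk6 and Klk8 in oligodendrocyte barcodes by UMIs per barcode, uninjured in blue and injured in orange, with exact 95% Poisson intervals and open triangles at the CPM of 3 UMIs where a bin had 0 UMIs. Klk6 lay higher in the injured library in all 6 bins, with the smallest gap in the deepest (1701 and 3560 CPM), and Klk8 was seen in 1 uninjured bin only.

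Single barcodes of at least 8000 UMIs showed how each gene was spread over cells. Klk6 CPM per barcode had its lowest value at 0, its median at 101 and its highest at 8115 in the 203 uninjured oligodendrocytes, and 0, 3539 and 10634 in the 84 injured ones. No Klk6 UMI was found in 88 uninjured barcodes (43.3%) and in 1 injured barcode (1.19%). Depth still differed within these classes, with medians of 11054 UMIs (uninjured) and 22473 UMIs (injured), and at 16000 UMIs and over Klk6 was in 19 of 21 uninjured (90.5%) and 67 of 67 injured barcodes. The libraries overlapped, with 9 uninjured barcodes (4.43%) above the injured median and 2 injured barcodes (2.38%) below the uninjured median. Among barcodes with a Klk6 UMI, the median was 947 CPM in 115 uninjured and 3594 CPM in 83 injured barcodes, so the level within such barcodes was also higher in the injured library. Klk8 was more uneven. Its CPM per injured barcode had a lowest value of 0, a median of 215 and a highest of 3898, and 21 of 84 barcodes (25%) had no Klk8 UMI. Of the 1112 Klk8 UMIs, 13.7% came from 1 barcode of 38991 UMIs, which also held the most Klk6 UMIs (338), and 8 barcodes held 50% of them, whereas it took 24 barcodes for Klk6. Without the 10 injured barcodes with most Klk8 UMIs, 488 UMIs (252 CPM) were left, and without the 10 with most Klk6 UMIs the Klk6 ratio was 3.85 (3.69 to 4.03).

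**Figure D3:**
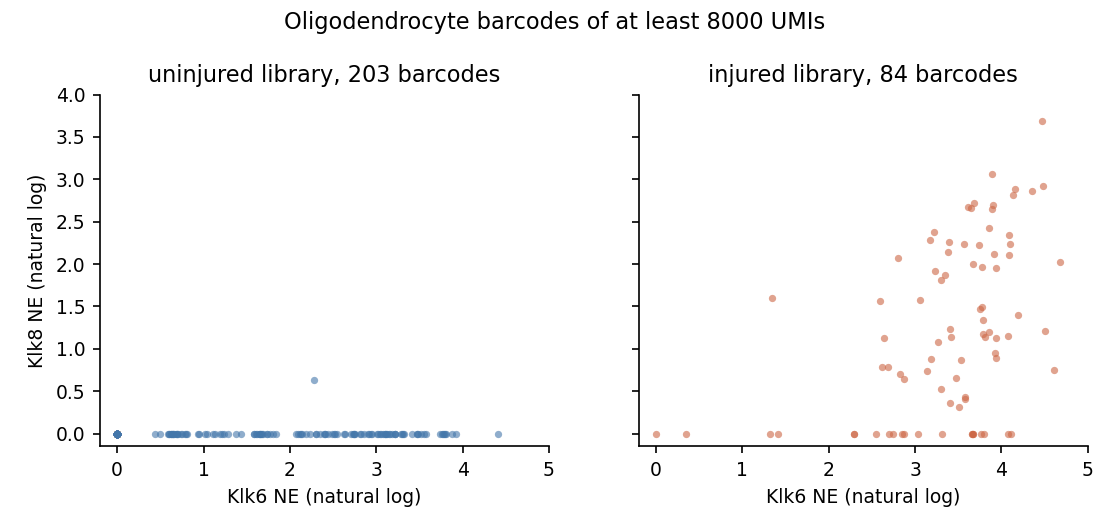
NE (normalized expression, natural log) of Klk6 (horizontal) and Klk8 (vertical) in each oligodendrocyte barcode of at least 8000 UMIs, 203 uninjured at left and 84 injured at right. Uninjured barcodes spread along the Klk6 axis from 0 and 1 of them had a Klk8 UMI, whereas 83 injured barcodes had Klk6 and 63 of them also Klk8.

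Klk8 was found mostly in barcodes that also had Klk6. In injured oligodendrocytes 87 barcodes had both genes, 94 had Klk6 alone, 6 had Klk8 alone and 106 had neither. Klk6 was thus in 93.5% (86.5 to 97.6) of the barcodes with Klk8 and in 47.0% (39.9 to 54.2) of those without. Depth is shared by both genes. In injured barcodes under 2000 UMIs, 12 of 17 with Klk8 had Klk6 (70.6%, 44.0 to 89.7) and 34.7% of those without, and at 8000 UMIs and over nearly all barcodes had Klk6, with 63 of 63 that had Klk8 and 20 of 21 that did not. The Klk6 level differed there by Klk8 class. It was 2376 CPM (2241 to 2516) in the 21 barcodes without Klk8 and 3594 CPM in 36 with 1 to 9 Klk8 UMIs. It was 3796 CPM in 22 with 10 to 49 and 6333 CPM (5997 to 6683) in 5 with at least 50. The last class included the barcode with the most UMIs of both genes. Median depth was 22866, 21024, 25974 and 38991 UMIs in these classes, so depth was not held equal. Conversely, Klk8 was at 239 CPM (195 to 289) in 23 barcodes with 10 to 49 Klk6 UMIs and at 649 CPM (608 to 691) in 56 with at least 50. Their median depths were 17486 and 26072.5 UMIs. There were 6.99 Klk6 UMIs for each Klk8 UMI in injured oligodendrocytes (6.57 to 7.45), a ratio of 3′ UMIs that does not depend on transcript length. It was 6.88 in barcodes under 2000 UMIs (4.51 to 10.9), 16.2 (10.3 to 26.8) from 2000 to 8000 and 6.83 (6.40 to 7.29) above.

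Other members of the family were scarce. Of 26 kallikrein genes, 9 had a UMI in oligodendrocytes and 4 had at least 20 in both libraries together, of which Klk6, Klk8 and Klk9 were at least 2-fold higher in the injured library and Klk1b22 at least 2-fold lower. Over all 10123 genes with at least 20 UMIs, 7.72% were at least 2-fold higher and 5.69% at least 2-fold lower. Klk9, the gene just before Klk8, had 20 UMIs in uninjured oligodendrocytes (4.82 CPM, 2.94 to 7.44) and 101 in injured ones (43.9 CPM, 35.7 to 53.3), a ratio of 9.10 (5.59 to 15.5). Of the 20 uninjured Klk9 UMIs, 19 were in barcodes with Klk6, which held 52.1% of all uninjured oligodendrocyte UMIs. Of the 101 injured Klk9 UMIs, 100 were in barcodes with Klk6 and 77 in barcodes with Klk8, classes that held 94.8% and 68.7% of all injured oligodendrocyte UMIs. At 8000 UMIs and over, Klk9 was at 30.7 CPM (17.2 to 50.7) in injured barcodes without Klk8 and at 48.9 CPM (38.4 to 61.4) in those with it, and these intervals overlap. Klk7 had 12 UMIs in injured oligodendrocytes, each in its own barcode, and 0 in uninjured ones. Klk10 had 5 uninjured and 4 injured UMIs, Klk12 had 5 injured UMIs in 1 barcode, Klk11 had 3 in 1 barcode and Klk13 had 1. Klk1b22 had 24 UMIs in uninjured and 0 in injured oligodendrocytes, 4.44-fold lower against a floor of 3 UMIs (exact upper limit of the ratio 0.299). It is uncertain because the Klk1b genes are close copies that can share reads.

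**Figure D4:**
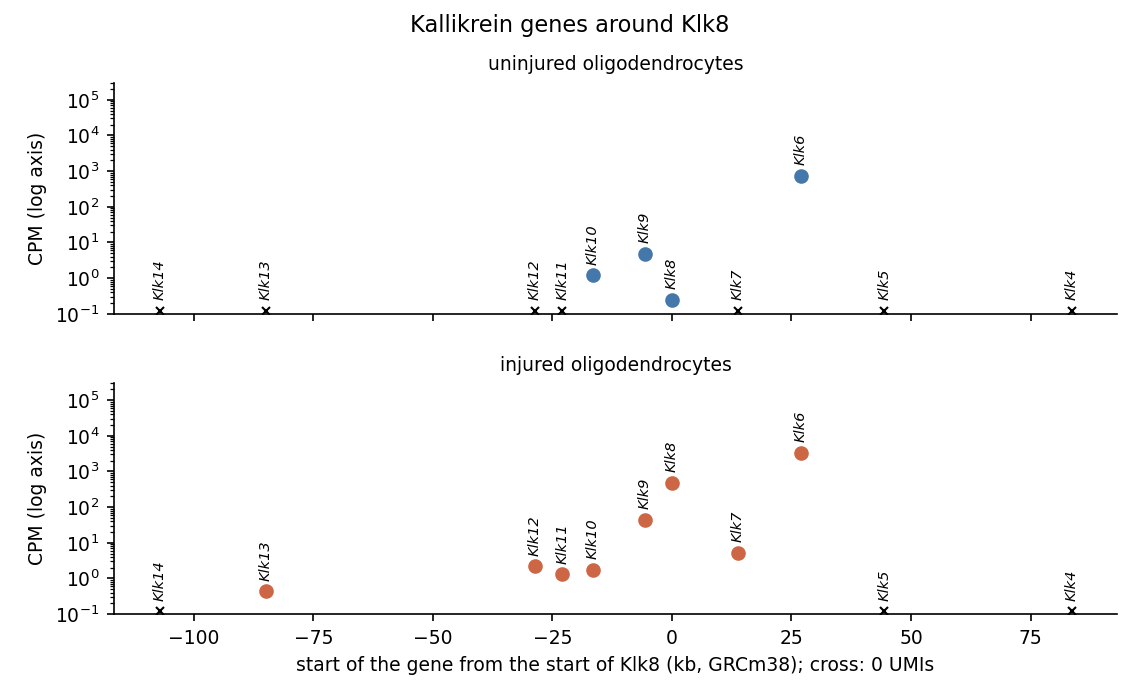
CPM of summed UMIs (log axis) of kallikrein genes in uninjured (top) and injured (bottom) oligodendrocytes against the distance of the gene's start from the start of Klk8 in kb, with crosses for genes at 0 UMIs. Klk6 led in both libraries (739 and 3378 CPM), Klk8 joined it in the injured library (483 CPM), and the neighbours stayed at or below the 43.9 CPM of injured Klk9.

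The partners of kallikreins were read from fixed lists. None of 6 protease-activated or kinin receptors reached 20 UMIs in oligodendrocytes. Of 5 other trypsin-like proteases with enough UMIs, 1 was at least 2-fold higher, Htra1 at 2.02 (1.73 to 2.35), a secreted protease with a serine active site, and none 2-fold lower, while Plat, the tissue plasminogen activator, had a ratio of 1.41, Htra3 of 1.23, Tmprss5 of 0.781 and Masp1, of the complement lectin pathway, of 0.608. Among 8 serine protease inhibitors, 3 were at least 2-fold higher and 2 at least 2-fold lower. Serpine2, which blocks thrombin and plasminogen activators, had a ratio of 4.06 on 18 and 8 UMIs (1.68 to 10.8). Serpina3n had 405 CPM in uninjured and 920 CPM in injured oligodendrocytes (ratio 2.27, 2.13 to 2.42), and Serpinb6a a ratio of 2.07. Slpi, the secretory leukocyte protease inhibitor, was lower at 0.360 (0.182 to 0.660), as was Serpind1, heparin cofactor II, at 0.365, while Serpinb1a, an inhibitor of neutrophil proteases, had a ratio of 0.651. Among 8 known substrates of KLK6 or KLK8, 3 were at least 2-fold higher. Mbp, which encodes myelin basic protein, was at 8238 CPM in uninjured and 8553 CPM in injured oligodendrocytes (ratio 1.04, 1.02 to 1.06), and App, the amyloid precursor, had a ratio of 1.51. Ephb2, a receptor cleaved by KLK8, had 14 injured and 7 uninjured UMIs (ratio interval 1.36 to 10.6), Fn1, for fibronectin, had a ratio of 2.97, Col4a1, a basement membrane collagen, 2.02 and Lama2, a laminin chain, 0.420.

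In uninjured oligodendrocytes Klk6 went with genes known to mark a mature subtype together with it. In the 203 barcodes of at least 8000 UMIs, S100b, which encodes a calcium-binding protein, was at 141 CPM (118 to 167) in 88 barcodes without Klk6, 639 CPM in 50 with 1 to 9 Klk6 UMIs and 1604 CPM (1524 to 1686) in 65 with 10 or more. Hopx, for a homeodomain protein without DNA binding, was at 70.9, 180 and 569 CPM, and Anxa5, for annexin A5, at 22.6 CPM in the first and 157 CPM in the last of these classes. Genes of another mature subtype had the opposite order. Ptgds, which encodes prostaglandin D2 synthase, was at 7522 CPM (7347 to 7700), 2045 CPM and 853 CPM (795 to 914), and Il33, for a cytokine released by damaged cells, at 337, 223 and 108 CPM. The injured barcodes with 10 or more Klk6 UMIs were 79 of the 84 of this depth, and genes of both sets varied in level there. S100b was at 1129 CPM (1082 to 1178), Hopx at 327 CPM and Anxa5 at 194 CPM. Ptgds was at 4518 CPM (4423 to 4614) and Car2 at 5089 CPM. Il33, at 1493 CPM (1439 to 1549), was above its level in every uninjured Klk6 class. Grm3 and Jph4, listed with Ptgds, were at 46.0 CPM (36.9 to 56.6) and 72.6 CPM (61.0 to 85.7). Uninjured barcodes without Klk6 had 99.9 and 193 CPM. Uninjured barcodes with 10 or more Klk6 UMIs had 44.4 CPM (32.0 to 60.0) and 41.2 CPM (29.3 to 56.4). Within that Klk6 class, Grm3 thus overlapped between the libraries and Jph4 was higher in the injured barcodes. Apod, for the lipid carrier apolipoprotein D, is listed with the other subtype but had the order of S100b, at 1773, 2821 and 4095 CPM in the uninjured classes and 7973 CPM in these injured barcodes. Over all oligodendrocytes, Il33 had a ratio of 6.41 (5.94 to 6.92), Anxa5 of 3.03, Apod of 2.67, S100b of 1.99 and Hopx of 1.36, Grm3, for a glutamate receptor, had one of 0.518 and Jph4, for a junctophilin, 0.615, and Ptgds was at 3602 CPM in uninjured and 4094 CPM in injured oligodendrocytes.

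**Figure D5:**
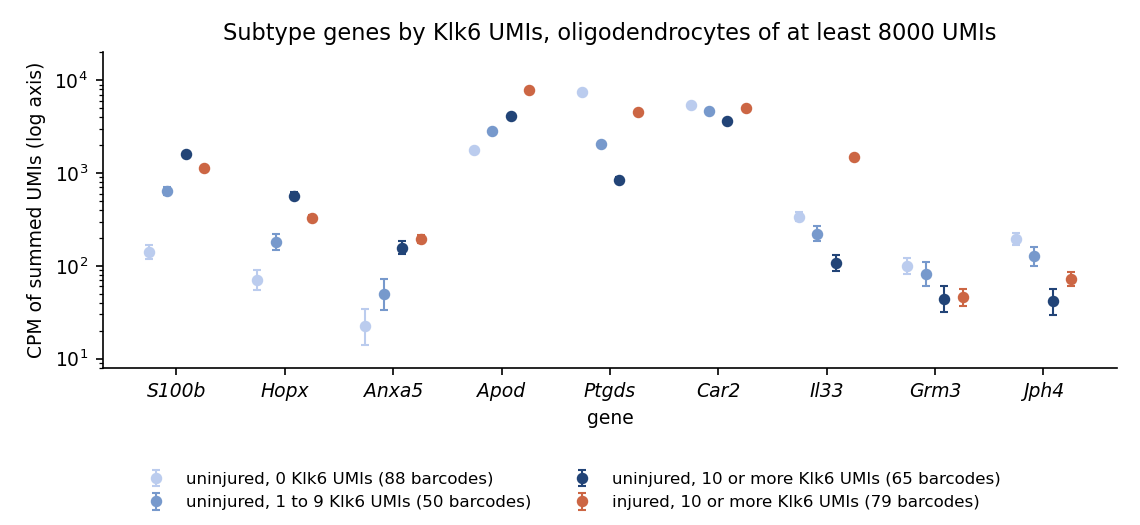
CPM of summed UMIs (log axis) of 9 genes of mature oligodendrocyte subtypes in barcodes of at least 8000 UMIs, uninjured with 0, 1 to 9 and 10 or more Klk6 UMIs (light to dark blue) and injured with 10 or more (orange), with exact 95% Poisson intervals. S100b, Hopx, Anxa5 and Apod were higher and the others lower with more Klk6 UMIs in the uninjured library. In the injured class Apod, Ptgds, Car2, Il33 and Jph4 lay above the matching uninjured class, and S100b and Hopx below it. The intervals of Anxa5 and Grm3 overlapped between these classes.

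Likeness to each gene was measured as Pearson's r of NE across oligodendrocyte barcodes of at least 5000 UMIs, of which there were 282 uninjured and 90 injured. The barcodes of a library share its preparation, and r is given as a description. The genes most like Klk6 among 7174 genes in injured barcodes were Apod (r = 0.78), Itm2b (0.70), Tmsb4x (0.67), Fth1 (0.67), Serpina3n (0.63), Ermn (0.63), Gapdh (0.62), Trf (0.62), Anln (0.60) and Sec11c (0.60). In uninjured barcodes the same measure was 0.59 for Apod, 0.43 for Serpina3n, 0.47 for Trf, which encodes transferrin, and 0.02 for Sec11c, for a subunit of the signal peptidase. The leading genes of uninjured barcodes were S100b (0.63), the glutathione transferase gene Mgst3 (0.59), Apod (0.59) and Hopx (0.54). Likeness to Ptgds was −0.60 in uninjured and −0.21 in injured barcodes, that to Car2, for a carbonic anhydrase, −0.28 and 0.46, and that to Il33 −0.34 and 0.13. Klk6 NE had r = 0.26 with log depth in uninjured and 0.01 in injured barcodes. The gene most like Klk8 in injured barcodes was Klk6 (0.45), followed by Pigg (0.44), Apod (0.41), Tmsb4x (0.41), Map1b (0.40), Actb (0.40), Rnf34 (0.38), Cacybp (0.37), Tbca (0.36) and Fxyd1 (0.36). These values are weak and Klk8 counts are sparse, so the order is not read further, and 4 of the 10 were among the first 10 when barcodes from 2000 UMIs were used.

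Over 10 strata (OPCs, NFOs and oligodendrocytes under 2000, 2000 to 8000 and at least 8000 UMIs, in each library), the genes most like Klk6 in log2(CPM + 10) among 5321 genes included Glul (r = 0.99), which encodes glutamine synthetase, Bmp2k (0.99), Car14 (0.99), Il33 (0.99), Apod (0.97), Hopx (0.97), Pip4k2a (0.97), Gstp2 (0.97) and Rftn1 (0.97). The genes most like Klk8 were Atf3 (0.93), a stress-induced transcription factor, Fxyd7 (0.93), Rnase4 (0.91), Chchd10 (0.91), Gm26870 (0.90), Ctsb (0.90), for a lysosomal protease, Sparc (0.89), Nol3 (0.88), Cebpb (0.86), a transcription factor of inflammation, and Gadd45b (0.86). Strata of 1 library share its preparation, whereas the oligodendrocyte strata differ in depth because they were cut by it. Klk8 was at 188, 119 and 533 CPM in the injured oligodendrocyte strata, by rising depth, and at most 11.4 CPM in the others. Likeness to Klk8 over strata thus mostly follows which genes were high in injured oligodendrocytes. Klk6 was at most 14.2 CPM in the OPC and NFO strata and at least 266 CPM in the oligodendrocyte strata. Likeness to Klk6 over strata thus also follows which genes were high in oligodendrocytes. Across barcodes, Il33 had r = −0.34 (uninjured) and 0.13 (injured) with Klk6. Atf3, with 5 UMIs in uninjured and 258 UMIs in injured oligodendrocytes, was in 17 of 63 injured barcodes of at least 8000 UMIs with Klk8 (27.0%, 16.6 to 39.7) and in 7 of 21 without (33.3%, 14.6 to 57.0), and these intervals overlap. Its level there was 153 CPM (134 to 174) with Klk8 and 28.7 CPM (15.7 to 48.1) without. Of the 231 Atf3 UMIs in the barcodes with Klk8, 117 came from 1 barcode, and without it the level was 77.3 CPM (63.8 to 92.9). Klk6 and Klk8 had r = 0.62 with each other over the strata.

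Markers of other cells and RNA quality differed between the libraries, with some marker lists higher and others lower in the injured one. The summed level of 8 immune markers was 17.8 CPM in uninjured and 217 CPM in injured oligodendrocytes, with all 8 detected in both and per-barcode sums from 0 to 2270 CPM and from 0 to 17822 CPM. In the barcodes of at least 8000 UMIs it was 15.2 and 61.5 CPM, and in the injured ones it was 62.8 CPM with and 57.4 CPM without a Klk8 UMI, with Ptprc, the pan-leukocyte marker, at 0. The summed level of the 4 Schwann cell markers was 558 CPM in uninjured and 810 CPM in injured barcodes of this depth, with Prx at 0 in both, and that of the 6 OPC markers was 577 and 681 CPM, with Pdgfra at 0 in the injured ones. Other lists were lower in the injured barcodes of this depth. Astrocyte markers summed to 125 CPM in uninjured and 38.0 CPM in injured barcodes. Endothelial markers were at 18.9 and 5.50 CPM, and pericyte or fibroblast markers at 5.74 and 2.00 CPM. The part of all these RNAs in the Klk6 and Klk8 levels was not tested. Malat1, a nuclear RNA, was under 0.5% of UMIs in 133 of 293 injured (45.4%) and in 48 of 857 uninjured (5.60%) oligodendrocyte barcodes. In these injured barcodes Klk6 was at 1748 CPM (1527 to 1993) and Klk8 at 218 CPM (145 to 316), against 3474 and 499 CPM in the others. Without barcodes under that limit the Klk6 ratio was 4.67 (4.47 to 4.87) and the Klk8 ratio 2034.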

How the data were processed

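Cells of uninjured and injured optic nerves were captured with the 10x Chromium v2 kit, and the authors counted UMIs with Cell Ranger 1.3 on mm10 and normalized them in Seurat 4.0.3. The authors drew equal numbers of cells per library after filters on mitochondrial share, genes and UMIs, the last against doublets. The deposited values are NE, the natural log of 1 plus the barcode's UMIs of a gene per 10000 UMIs, with the authors' type for each barcode. A table joining both libraries was not used. The smallest value of a barcode, taken out of the log, is worth 1 UMI, and with it the values of all barcodes gave whole UMIs within 0.001.

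UMIs were summed per library and type. CPM have exact Poisson intervals, shares exact (Clopper-Pearson) binomial intervals and ratios exact conditional intervals. Python 3.11.15, numpy 2.4.6, scipy 1.17.1, pandas 2.3.3 and scanpy 1.11.5 (Scrublet doublet calls, as an alternative) were used, and the statistics were checked on simulated data. A class at 0 UMIs was given a floor of 3 UMIs. Thinning drew UMIs without replacement.

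Named genes are Klk6 and Klk8, up to 3 genes with the highest and 3 with the lowest ratio of each list among those with at least 20 UMIs, and the 10 genes most like each member by the 2 measures of likeness (in barcodes among genes with a UMI in at least 25% of them, over strata among genes with at least 200 UMIs). Some genes that this rule or a list names are not reported here. The members, lists and thresholds were chosen with earlier results of these data known. Classes by Klk6 or Klk8 UMIs, the levels among positive barcodes and the neighbours in the cluster were added after seeing the values, as were App, Car2, S100b, Hopx and the genes beside Klk6 in rank. Alternatives were another filter, scaling, thinning, depth bins, doublet calls and types from markers.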

Additional observations from a re-analysis of the deposited data

How the results depend on the processing

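Of 50 alternatives tried, 28 left the value within its counting interval or within 1.5 times its count, and none turned the direction of a ratio or a difference. The Klk6 ratio of 4.57 was 3.98 as a mean of CPM per barcode, 4.25 with TMM scaling (which shifts all genes by 0.10 on the log2 scale), 3.97 and 4.97 with barcodes thinned to 500 and 2000 UMIs, and 2.91 within depth bins. The Klk8 ratio was 25.7 against the floor at 500 UMIs, and 585 without the barcode with most Klk8 UMIs in each library, where the floor also applies. The Klk6 difference in share of 26.0 percentage points was 49.6 thinned to 2000 UMIs, 41.1 with the stricter filter (500 genes or more, mitochondrial share up to 10%), and 40.8 without barcodes low in Malat1. The Klk8 difference of 31.6 was 23.5 with at least 2 UMIs, 7.17 thinned to 500 UMIs, 55.5 with the stricter filter and 47.4 without barcodes low in Malat1. For Klk6 the NFO over oligodendrocyte ratio was 0.0 with types from markers and 0.0180 as a mean per barcode. Genes at least 4-fold higher and lower numbered 47 and 27 with a minimum of 200 UMIs and 222 and 121 with 20, as the minimum changes how many genes enter. Of the 10 genes most like each member, 4 for Klk6 and 4 for Klk8 were shared from 2000 UMIs, and 6 for Klk8 when thinned to 5000 UMIs. The causes of the other shifts were not tested. Scrublet called 10 uninjured and 3 injured doublets, and without them the Klk6 ratio was 4.52. No paired analysis was possible because each condition has 1 library and no test was made. The 94130 UMIs of uninjured NFOs and 117597 of injured OPCs limit what could be seen in these classes, and the UMI of Klk8 in uninjured oligodendrocytes sets the width of its ratio.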
